A study of Mus musculus with 10 samples.

Results

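The guanylate-binding protein (Gbp) genes were examined in whole mouse liver after napabucasin or its vehicle. The 10 members were Gbp2 to Gbp11, taken by gene name from a count table of 54532 genes, and the table held 2 more rows of the family, Gbp2b and the pseudogene Gbp2-ps. The family was chosen by its counts in these same libraries, with its higher napabucasin values already known, so those differences are given as a description and carry no test. The vehicle group (n = 5) received 1% NaCMC, sodium carboxymethyl cellulose in water, by daily gavage for 7 days. The napabucasin group (n = 5) received Napabucasin (BBI608) by daily gavage at 20 mg per kg body weight for 7 days. Both groups are called biological replicates in the labels, and no source used here gives the mice's strain, sex, age or genotype.

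Guanylate-binding proteins are large GTPases of the dynamin superfamily that interferons induce, most strongly interferon gamma. They assemble on vacuoles that hold pathogens and on bacteria in the cytosol, and they help to bring inflammasome sensors and caspases to them. In the mouse the genes lie in a cluster on chromosome 3 and another on chromosome 5. In liver they are made by hepatocytes, Kupffer cells, endothelium and lymphocytes when interferon signalling is active. Napabucasin is a quinone described as an inhibitor of transcription driven by STAT3.

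Library totals ran from 14124484 to 17759967 counts for the vehicle and from 15364342 to 17369118 counts for napabucasin. Mitochondrially encoded genes took 7.03% to 19.0% of the counts in vehicle livers and 9.03% to 19.9% in napabucasin livers. Genes annotated as ribosomal RNA took 0.912% in vehicle replicate 2 and 1.09% in each of napabucasin replicates 1 and 2, against at most 0.455% in the other libraries. The tissue label was checked on 9 hepatocyte genes, whose summed level ran from 57100 to 166000 CPM (normalised read counts, scaled to library size) in vehicle and from 80700 to 141000 CPM in napabucasin libraries. In whole tissue, a change in the number of cells of a type and a change in RNA per cell cannot be told apart.

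All 10 members passed the filter on low counts. Gbp2, Gbp3, Gbp5 and Gbp7 lie on the plus strand of chromosome 3, from 142493978 (the start of Gbp5) to 142638008 (the end of Gbp2) on GRCm38. Gbp4, Gbp6, Gbp8, Gbp9, Gbp10 and Gbp11 lie on the minus strand of chromosome 5, from 105014150 (the start of Gbp8) to 105346472 (the end of Gbp11). Promoter sequence from RefSeq (GRCm38.p6, 250 bases before to 50 bases after the start of transcription) was matched for 4 of the 10 members, those on chromosome 3. These windows are shown because interferons act on the family through short promoter motifs. Capitals mark matches to GAAANNGAAA on either strand (TTTCNNTTTC when read on the other), the core spacing of an interferon-stimulated response element, and to TTCNNNGAA, the spacing of a STAT site, which is the same on both strands.
Gbp2 (chr3:142620413-142620712, plus strand): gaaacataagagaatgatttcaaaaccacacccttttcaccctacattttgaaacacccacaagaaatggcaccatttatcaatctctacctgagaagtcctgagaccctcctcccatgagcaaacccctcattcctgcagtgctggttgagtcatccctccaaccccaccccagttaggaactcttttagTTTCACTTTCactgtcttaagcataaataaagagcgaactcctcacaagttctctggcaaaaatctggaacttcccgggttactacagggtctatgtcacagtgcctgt
Gbp3 (chr3:142559794-142560093, plus strand): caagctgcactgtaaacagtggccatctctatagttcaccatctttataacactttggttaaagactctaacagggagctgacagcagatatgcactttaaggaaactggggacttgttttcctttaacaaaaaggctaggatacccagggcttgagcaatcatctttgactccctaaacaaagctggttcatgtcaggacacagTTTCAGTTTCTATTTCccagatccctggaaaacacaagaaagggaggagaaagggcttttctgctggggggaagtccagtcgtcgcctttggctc
Gbp5 (chr3:142496684-142496983, plus strand): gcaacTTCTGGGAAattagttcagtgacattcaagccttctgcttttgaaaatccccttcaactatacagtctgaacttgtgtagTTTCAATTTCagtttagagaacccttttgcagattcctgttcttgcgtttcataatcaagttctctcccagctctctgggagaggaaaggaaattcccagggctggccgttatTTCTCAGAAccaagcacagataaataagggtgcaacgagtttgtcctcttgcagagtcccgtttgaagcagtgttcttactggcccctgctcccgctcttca
Gbp7 (chr3:142530086-142530385, plus strand): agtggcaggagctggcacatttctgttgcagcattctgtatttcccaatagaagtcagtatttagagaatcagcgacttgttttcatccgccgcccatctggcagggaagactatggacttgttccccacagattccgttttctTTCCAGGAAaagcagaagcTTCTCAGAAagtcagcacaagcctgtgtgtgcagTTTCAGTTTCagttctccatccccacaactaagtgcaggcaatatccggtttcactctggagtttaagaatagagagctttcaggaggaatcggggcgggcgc

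Each of the 4 windows held the GAAANNGAAA spacing, which 3.44% of 32851 mouse promoter windows of the same 300 bases hold. The match began at -59 relative to the RefSeq start in Gbp2, at -53 in Gbp7 and at -165 in Gbp5. The Gbp5 window (142496684 to 142496983) lies inside the gene as annotated for the counts, which starts at 142493978. The windows printed for Gbp2, Gbp3 and Gbp7 take in the start of the gene in that annotation. Gbp3 had 2 matches that overlap each other, from -45 to -36 and from -39 to -30, and a second RefSeq start of Gbp3 had none. The TTCNNNGAA spacing was matched at 2 places in Gbp5, beginning at -245 and -52, and at 2 places in Gbp7, beginning at -106 and -87, and 8.3% of all promoter windows hold it. Gbp2 and Gbp3 had no match to it in these windows. A match is a run of letters and was not tested as a binding site.

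Every member had a higher mean in the napabucasin group, in a range from 1.13 times (Gbp2) to 3.55 times (Gbp8) the vehicle mean. Among all genes that passed the filter, 50.1% had a log2 fold change above 0. The summed level of the 10 members was 172 ± 16.3 CPM in vehicle livers (SD, n = 5, range 156 to 191) and 348 ± 107 CPM in napabucasin livers (range 268 to 534), a ratio of 2.03. All 5 napabucasin libraries lay above the highest vehicle library in this sum. The chromosome 3 members summed to 81.6 ± 6.52 CPM with vehicle and 125 ± 22.2 CPM with napabucasin, a ratio of 1.54. The chromosome 5 members summed to 90.2 ± 21.4 CPM with vehicle and 223 ± 105 CPM with napabucasin, a ratio of 2.47. Napabucasin replicate 1 was the highest library in the family's sum, and without it the log2 ratio of that sum was 0.81 in place of 1.02. Without it the log2 ratio was 0.98 in place of 1.30 for chromosome 5 and 0.60 in place of 0.62 for chromosome 3. Without the 3 libraries with the highest ribosomal RNA share these were 0.93 and 0.70. Gbp2b, a chromosome 3 gene at 2.75 times its vehicle mean, is no member and is not in these sums. The difference between the chromosome ratios was not tested.

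**Figure D1:**
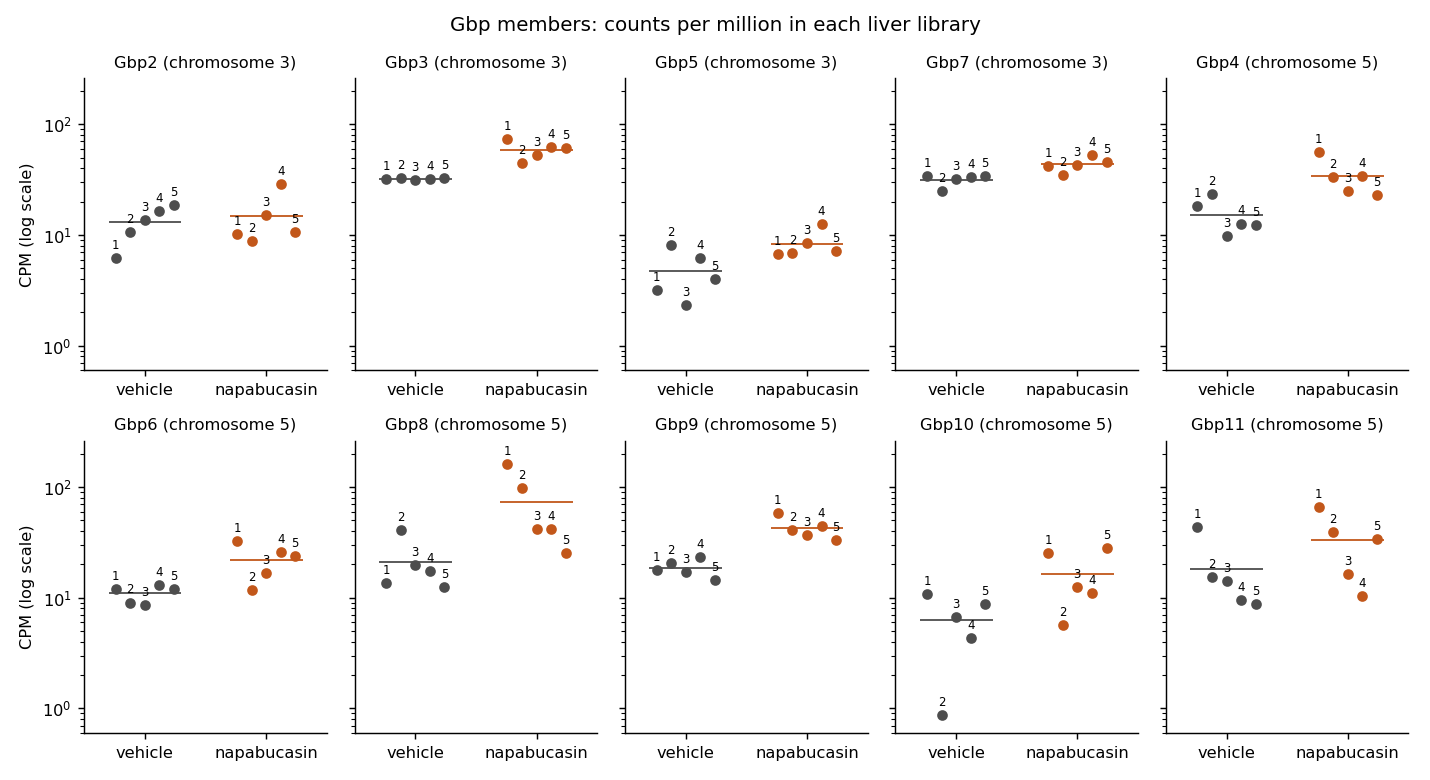
CPM (log axis) of each member in the 5 vehicle and 5 napabucasin libraries; points are libraries, numbered by replicate, and lines are group means. The groups are apart in Gbp3, Gbp7 and Gbp9 and overlap in the other 7 members.

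The median log2 fold change (napabucasin over vehicle, edgeR) of the 10 members was 0.94, against 0.00 for the 14244 genes tested, of which 4.61% lay above the members' median. No member and 0% of all genes passed an adjusted p of 0.05 in edgeR's quasi-likelihood test. At an unadjusted p under 0.05, 8 of the 10 members were higher, all but Gbp2 and Gbp11, and so were 9.34% of all genes tested, while no member and 5.83% of all genes were lower. With DESeq2 at an adjusted p under 0.05, 5 members were higher (Gbp3, Gbp4, Gbp6, Gbp8 and Gbp9), beside 1.27% of the genes it tested. With limma-voom, which gives noisy libraries less weight, 3 members were higher (Gbp3, Gbp4 and Gbp9), beside 0.688% of all genes. In 3 members (Gbp3, Gbp7 and Gbp9) every napabucasin library exceeded every vehicle library, as in 1.21% of all genes tested. Since the members were chosen with these differences known, nothing is read from these counts about the family.

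**Figure D2:**
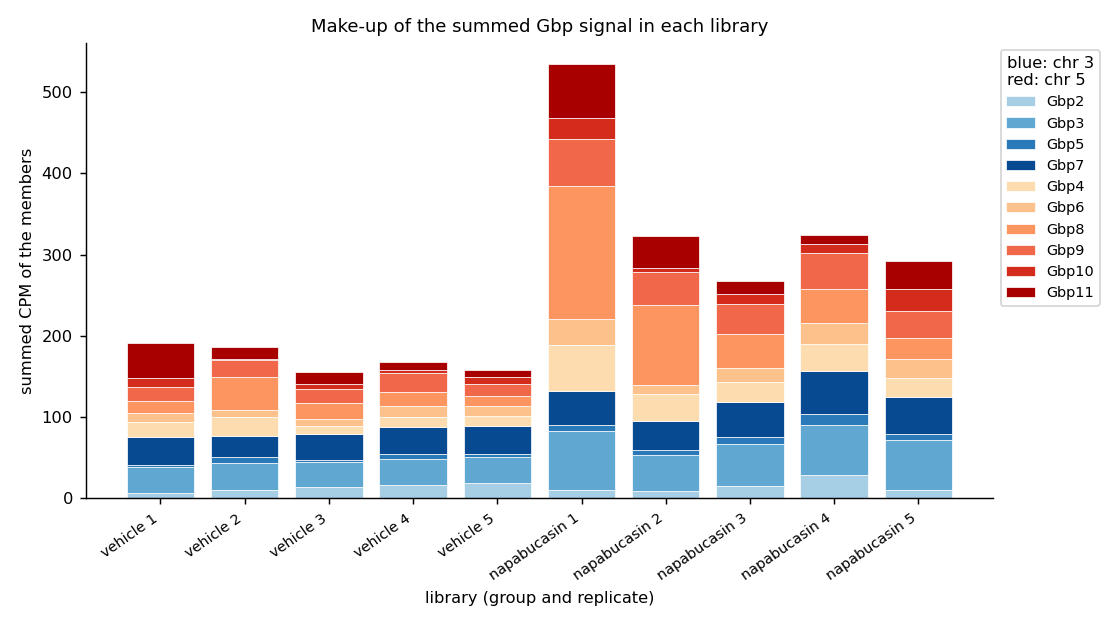
Summed CPM of the 10 members in each library, divided by gene (blue shades: chromosome 3, red shades: chromosome 5). The vehicle libraries sum to 156 to 191 CPM and the napabucasin libraries to 268 to 534 CPM, with Gbp8 the largest block in napabucasin replicates 1 and 2.

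Gbp8, a member of the chromosome 5 cluster, had the largest fold change and the widest spread between napabucasin livers. In vehicle replicates 1 to 5 it measured 13.7, 40.7, 19.8, 17.3 and 12.6 CPM. In napabucasin replicates 1 to 5 it measured 163, 97.5, 41.5, 41.5 and 25.2 CPM. Vehicle replicate 2 was high within its group and lay above napabucasin replicate 5, so the groups overlapped through these 2 libraries. The means were 20.8 ± 11.5 and 73.8 ± 57.1 CPM, and the log2 fold change was 1.82 (SE 0.48). Napabucasin replicates 1 and 2 and vehicle replicate 2, which held the highest Gbp8 levels within their groups, were the 3 libraries with the highest share of ribosomal RNA, and the part of that share in the result was not tested. Without those 3 libraries the Gbp8 log2 fold change was 1.20, and leaving out single libraries moved it between 1.30 (without napabucasin replicate 1) and 2.22 (without vehicle replicate 2).

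Gbp9 is a neighbour of Gbp8 and is recruited to parasite vacuoles in mouse cells. It measured 17.8, 20.5, 17.1, 23.3 and 14.4 CPM in the vehicle replicates and 58.5, 40.7, 36.6, 44.3 and 33.3 CPM in the napabucasin replicates. The lowest napabucasin library (33.3 CPM) lay above the highest vehicle library (23.3 CPM), and the log2 fold change was 1.19 (SE 0.19). Gbp4 measured 18.4, 23.4, 9.74, 12.7 and 12.2 CPM with vehicle. With napabucasin it measured 56.6, 33.3, 24.9, 34.3 and 23.2 CPM. The groups overlapped slightly, at vehicle replicate 2 and napabucasin replicate 5, and the log2 fold change was 1.17 (SE 0.28). Gbp4, Gbp8 and Gbp9 together measured 54.7 ± 17.5 CPM with vehicle and 151 ± 78.6 CPM with napabucasin, a ratio of 2.76. In the GENCODE M21 annotation some transcripts of these 3 genes share first-exon bases. Gbp8-201, of 4 Gbp8 transcripts, and Gbp9-202, of 4 Gbp9 transcripts, begin in the first exon of Gbp4. They share 60 to 61 bases with it, from 105139480 on chromosome 5, and the other transcripts of Gbp8 and Gbp9 do not.

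Gbp6 measured 12.1, 9.05, 8.67, 13.0 and 12.0 CPM with vehicle and 32.5, 11.7, 16.8, 25.8 and 23.7 CPM with napabucasin. Napabucasin replicate 2 lay among the vehicle values and the other 4 napabucasin libraries lay above all of them, with a log2 fold change of 1.01 (SE 0.25). Gbp10, whose coding sequence is nearly that of Gbp6, measured 10.9, 0.872, 6.68, 4.33 and 8.83 CPM with vehicle. With napabucasin it measured 25.4, 5.68, 12.4, 11.1 and 28.1 CPM. Replicate 2 was the lowest library of both groups for Gbp10, and 4 of 5 napabucasin libraries exceeded the highest vehicle library. Its log2 fold change was 1.40 (SE 0.54), and it ran from 1.11 to 1.67 when single libraries were left out. Gbp11, annotated as a polymorphic pseudogene, measured 43.4, 15.5, 14.2, 9.44 and 8.76 CPM with vehicle and 65.8, 39.0, 16.3, 10.3 and 34.0 CPM with napabucasin. Replicate 1 was the highest library of both groups for Gbp11, and 1 napabucasin library exceeded the highest vehicle library. The Gbp11 log2 fold change of 0.86 (SE 0.51) moved between 0.47 (without napabucasin replicate 1) and 1.45 (without vehicle replicate 1), and it was 0.10 without the 3 libraries with the highest ribosomal RNA share. Between libraries with the same replicate number, the napabucasin value was the higher in 5 of 5 pairs for Gbp11. The same held for Gbp4, Gbp6, Gbp8 and Gbp10, whose groups also overlap. For Gbp5 and Gbp2, the other members whose groups overlap, it was the higher in 4 of 5 and 3 of 5 pairs. The labels do not call these libraries pairs, and no share over all genes was computed for them.

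On chromosome 3, Gbp3 had the least variable vehicle values of the family: 32.0, 32.5, 31.6, 32.3 and 32.5 CPM. In the napabucasin replicates it measured 73.0, 44.4, 52.4, 62.0 and 61.0 CPM, all above every vehicle library. The means were 32.2 ± 0.40 and 58.6 ± 10.8 CPM and the log2 fold change was 0.86 (SE 0.16). Gbp7, which helps to assemble the NADPH oxidase on phagosomes, measured 33.8, 25.2, 31.9, 33.1 and 34.1 CPM with vehicle. With napabucasin it measured 42.3, 34.9, 43.0, 52.9 and 46.0 CPM. The groups were apart by less than 1 CPM, at vehicle replicate 5 and napabucasin replicate 2, and on the FPKM scale they overlapped (highest vehicle 6.16, lowest napabucasin 6.13 FPKM). The log2 fold change was 0.47 (SE 0.16).

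Gbp5 promotes assembly of the NLRP3 inflammasome in macrophages, and it had the lowest level of the family per length. It measured 3.16, 8.08, 2.34, 6.18 and 4.02 CPM with vehicle and 6.80, 6.87, 8.40, 12.5 and 7.12 CPM with napabucasin. Vehicle replicate 2 lay inside the napabucasin range, and the log2 fold change was 0.80 (SE 0.32). Gbp2, which coats parasite vacuoles and bacteria, measured 6.24, 10.7, 13.6, 16.4 and 18.5 CPM with vehicle and 10.2, 8.82, 15.2, 28.9 and 10.7 CPM with napabucasin. Its groups overlapped over most of their range, and 1 napabucasin library, replicate 4, exceeded the highest vehicle library. The Gbp2 log2 fold change of 0.18 (SE 0.35) was -0.23 without napabucasin replicate 4 and -0.02 without vehicle replicate 1. Gbp2b, the chromosome 3 gene for the mouse protein called GBP1 and no member of the set, measured 5.73, 20.5, 14.7, 11.6 and 15.2 CPM with vehicle and 48.4, 54.0, 32.3, 37.6 and 13.7 CPM with napabucasin. Of its napabucasin libraries 4 lay above all vehicle libraries, and its log2 fold change was 1.45 (SE 0.36).

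**Figure D3:**
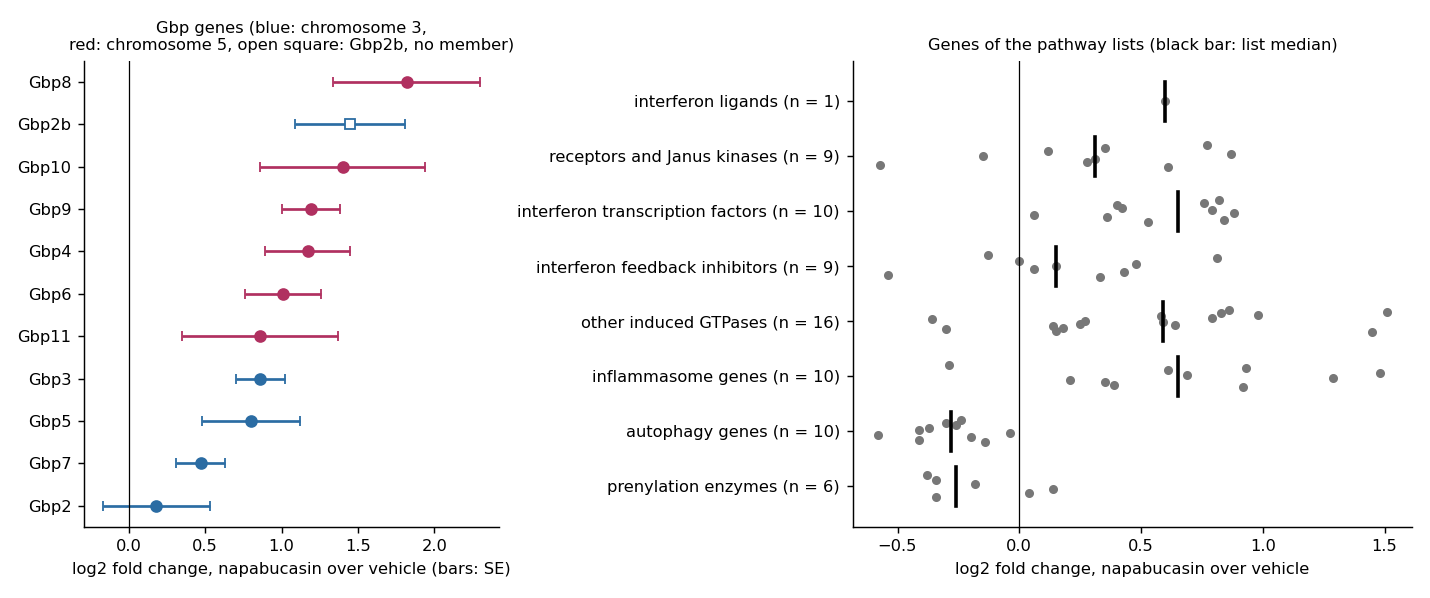
Log2 fold changes, napabucasin over vehicle, of the Gbp genes with their SE (left) and of the tested genes of 8 lists around the interferon pathway (right; points are genes, black bars list medians). The members run from 0.18 (Gbp2) to 1.82 (Gbp8), and the list medians run from -0.28 for the autophagy genes to 0.65 for the transcription factors and the inflammasome genes.

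Levels of different genes were compared on the deposited FPKM scale, which divides by gene length. In vehicle livers Gbp3 was highest at 9.78 ± 0.20 FPKM, followed by Gbp11 (6.70 ± 5.20 FPKM), Gbp8 (5.98 ± 3.23 FPKM), Gbp7 (5.60 ± 0.70 FPKM) and Gbp2 (5.18 ± 1.96 FPKM). Gbp9 (3.57 FPKM), Gbp4 (2.02 FPKM), Gbp6 (1.83 FPKM), Gbp10 (1.63 FPKM) and Gbp5 (0.71 FPKM) made up the lower part of the order. Of neighbours in this order, Gbp9 and Gbp4 alone differed by more than the larger of their SDs. In napabucasin livers Gbp8 came first at 21.1 ± 16.1 FPKM and Gbp3 was next at 17.7 ± 3.15 FPKM. Then came Gbp11 (12.1 FPKM), Gbp9 (8.13 FPKM), Gbp7 (7.70 FPKM), Gbp2 (5.80 FPKM), Gbp4 (4.53 FPKM), Gbp10 (4.21 FPKM), Gbp6 (3.66 FPKM) and Gbp5 (1.24 FPKM), and here Gbp6 and Gbp5 alone differed as neighbours by more than that. As a share of the family's summed CPM, Gbp8 averaged 12.0% in vehicle and 19.5% in napabucasin libraries and Gbp7 averaged 18.6% and 13.4%. The Gbp8 share reached 30.6% in napabucasin replicate 1, and the Gbp11 share ran from 3.17% in napabucasin replicate 4 to 22.7% in vehicle replicate 1.

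How far reads can be assigned to single members depends on the sequence they share. Coordinates and exon lengths of all 10 members and Gbp2b in the deposited table equalled those of GENCODE M21. Gbp6 and Gbp10 were 98.4% identical over 1836 aligned coding bases, and Gbp8 was 95.9% identical to Gbp11 over the 1083 bases that aligned. On chromosome 3 the nearest pair of members was Gbp3 and Gbp7 at 78.5%, and Gbp2 was nearest to Gbp2b at 82.5%. Of all 100-base stretches of its transcripts, Gbp10 shared 73.5% and Gbp6 64.5% with another gene, and at 150 bases they still shared 66.6% and 59.1%. Gbp7 shared 562 of its 5612 stretches of 100 bases, Gbp11 5.13% and Gbp8 4.39%, and each of the other 5 members shared 1.65% or less. The shares of Gbp6 and Gbp10 include stretches shared with the gene model Gm43302 (chromosome 5, 105214907 to 105293695, minus strand), and not only those shared between these 2 members. Gm43302 takes in 1726 exonic bases of Gbp6, 29.0% of its exons, and 1792 exonic bases of Gbp10, 46.3% of its exons. Gm43302 itself held 0 to 4 counts per library. No source used here says how reads with more than 1 possible gene were counted. The separate values of Gbp6 and Gbp10 are therefore uncertain, and their FPKM values divide by lengths that include these shared bases.

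**Figure D4:**
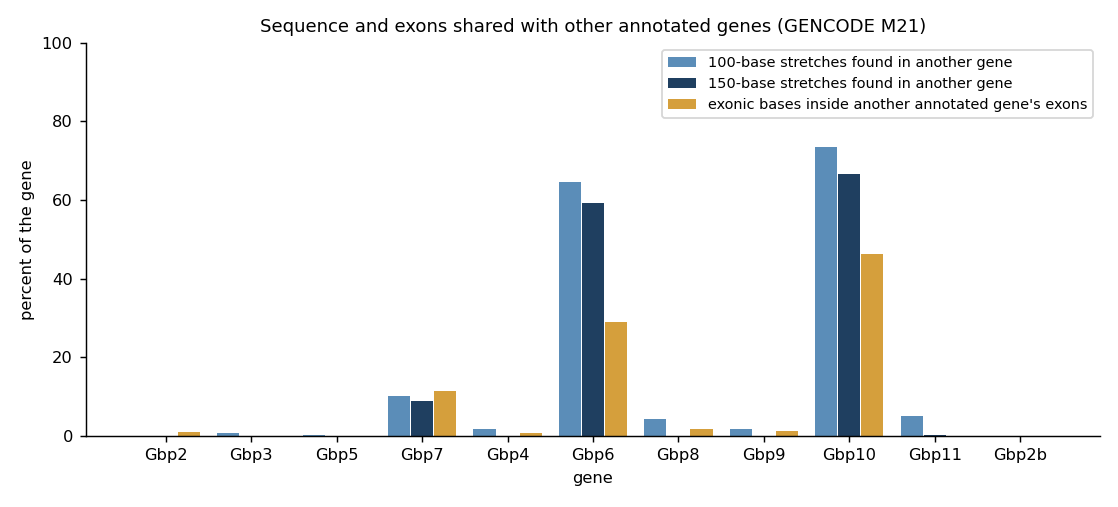
Percent of each gene's 100-base and 150-base transcript stretches found in another annotated gene, and percent of its exonic bases that lie inside another gene's exons. Gbp6 and Gbp10 stand at 59.1% to 73.5% for the stretches, and Gbp7 at 8.77% for 150-base stretches.

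The codons of the P-loop are shown for members of both clusters, since all 10 members carry this GTP-binding motif of a glycine, 4 residues, a glycine, a lysine and a serine. Capitals mark the codons of the fixed glycine and of the closing glycine, lysine and serine. The sequences were read from the GENCODE M21 coding sequences on GRCm38, 5′ to 3′ of the coding strand.
Gbp6: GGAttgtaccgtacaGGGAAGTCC
Gbp10: GGAtggtcccgtactGGGAAGTCC
Gbp4: GGAtggtcccatacaGGGAAGTCC
Gbp3: GGTttatatcgtacaGGGAAGTCC
Gbp2: GGCctctaccgcacaGGCAAATCC
Gbp8, Gbp9 and Gbp11 have the same 24 bases as Gbp6. Members also differ in their ends, since a cysteine codon followed by 3 more codons at the end marks a CaaX box, the signal for a lipid (prenyl) anchor. Among the 10 members Gbp2 and Gbp5 carry it, and Gbp2b does too. The last 30 coding bases are shown with the CaaX codons in capitals.
Gbp2: aacaaatcgtctgggaagTGCACTATACTC
Gbp5: cgtagacatcatcatgacTGTGTTATAAGC
Gbp6: cattaccttgtccgttatctaaagcattta
Gbp10: cattaccttgtccgttatctaaagcattta
Gbp6 and Gbp10 end in the same 30 bases, with no such codon. The 2 members with a CaaX box had log2 fold changes of 0.18 (Gbp2) and 0.80 (Gbp5), and Gbp2b, which also carries it, had 1.45 (SE 0.36). The 8 members without it ran from 0.47 (Gbp7) to 1.82 (Gbp8). A relation between the CaaX box and the fold change was not tested.

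Covariation among the members was described on deviations of log2 CPM from the group mean over the 10 libraries, so that the treatment difference does not enter. These points share depth and scaling, and the 2 group means have been removed. The 45 pairs had a median Pearson r of 0.17, from -0.93 to 0.91, and 29 were above 0. Pairs on chromosome 3 had a median r of 0.30 (6 pairs), pairs on chromosome 5 had 0.28 (15 pairs) and pairs between chromosomes had 0.12 (24 pairs). The members did not vary from liver to liver as 1 block. Gbp3 and Gbp6, on different chromosomes, had the highest r (0.91), and it was 0.88 without napabucasin replicate 1. Gbp2 and Gbp11 had the lowest r (-0.93), and without that library it was -0.97. Among Gbp4, Gbp8 and Gbp9, of which some transcripts share first-exon bases, r was 0.74 (Gbp4 and Gbp8), 0.72 (Gbp8 and Gbp9) and 0.69 (Gbp4 and Gbp9). Without napabucasin replicate 1 these were 0.59, 0.55 and 0.51. Gbp10 had an r of 0.58 with Gbp6, with which it can share reads, and -0.49 with Gbp8, and without that library these were 0.54 and -0.86.

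**Figure D5:**
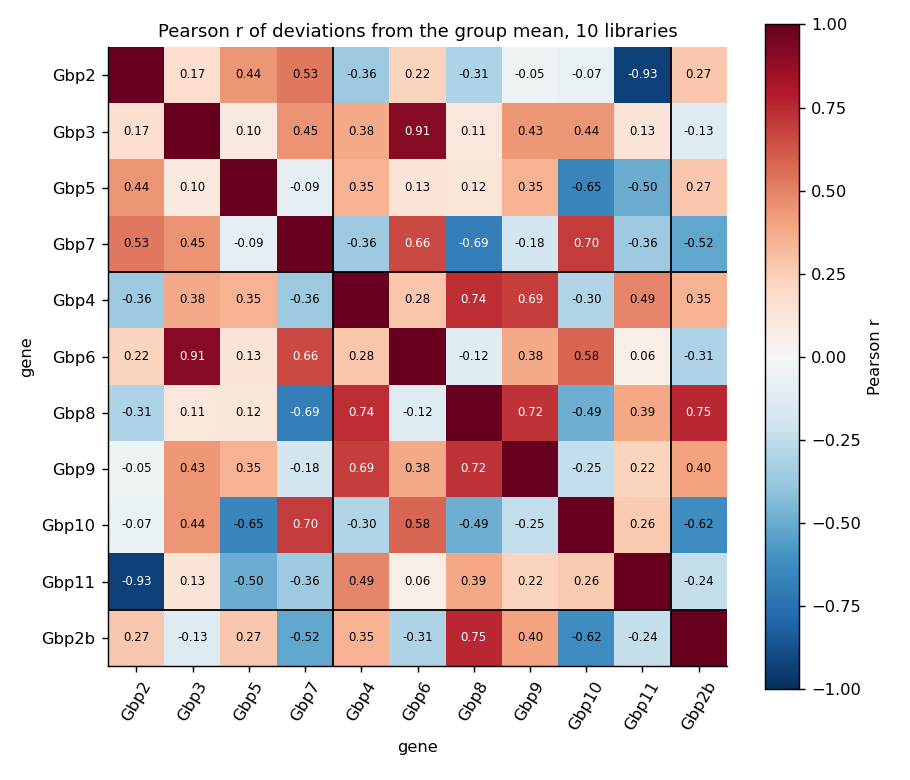
Pearson r between genes of their log2 CPM deviations from the group mean over 10 libraries, with chromosome 3 members first, then chromosome 5 members, then Gbp2b. The values run from -0.93 (Gbp2 and Gbp11) to 0.91 (Gbp3 and Gbp6).

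The genes most like the family were ranked by r with the mean deviation of the 10 members, over the 13331 other genes that averaged 1 CPM or more. The first was Irak1, a kinase of interleukin-1 and Toll-like receptor signalling (r = 0.937), followed by Pold1, a DNA polymerase subunit (0.913), Zfp995 (0.908), Dnmt1, the maintenance DNA methyltransferase (0.897), and Odr4 (0.890). Adam33, Serpina4-ps1, A430046D13Rik, Cnot8 and Snrpa1 came next at 0.887 to 0.876. These 10 genes are the top of a search over 13331, in which some high r values can arise by chance, and a shared role was not tested. The order rests in part on napabucasin replicate 1, whose mean deviation was 0.52 against -0.24 to 0.14 in the other libraries. Without it these r values were 0.54 (Cnot8) to 0.77 (Irak1). Of the members themselves, Gbp3 (0.84) and Gbp6 (0.81) followed the family's mean most closely and Gbp2 had an r of -0.15.

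The ligands upstream of the family gave few counts. Ifng, the main inducer, measured 0.20 ± 0.13 CPM with vehicle and 0.25 ± 0.28 CPM with napabucasin and did not pass the filter on low counts. Ifnb1, Ifna1, Ifna2, Ifna4, Ifnl2 and Ifnl3 were at 0 counts in every library. Il18, a cytokine that elicits interferon gamma, was the 1 of 10 ligand genes tested and had a log2 fold change of 0.60 (SE 0.20). Among 9 receptors and Janus kinases 7 had a higher mean, the median log2 fold change was 0.31, and 4 were higher at an unadjusted p under 0.05, against 9.34% of all genes. Ifngr1, the ligand-binding chain of the interferon gamma receptor, had a log2 fold change of 0.61 (SE 0.23) and Ifngr2, its partner chain, had -0.57 (SE 0.27). Il10rb stood at 0.87 and the kinase Tyk2 at 0.77, while Jak1 and Jak2, the kinases of the interferon gamma receptor, stood at 0.12 and 0.35. No gene of the 8 pathway lists passed the adjusted threshold in edgeR, as no gene in the table did.

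All 10 interferon transcription factors had a higher mean (median log2 fold change 0.65, against 0.00 for all genes tested), and 5 were higher at an unadjusted p under 0.05, against 9.34% of all genes. Irf1, which binds the response elements of Gbp promoters, had a log2 fold change of 0.36 (SE 0.26). Stat2 and Irf9, which act together in type I signalling, stood at 0.84 and 0.42, and Irf7, Irf8 and Nlrc5 stood at 0.88, 0.79 and 0.76. Stat3, the named target of the drug, measured 108 ± 30.0 CPM with vehicle and 91.6 ± 8.81 CPM with napabucasin. Its log2 fold change was -0.23 (SE 0.20). Of the 9 feedback inhibitors 6 had a higher mean and 1 was higher at an unadjusted p under 0.05 (Ptpn6, a phosphatase, at 0.48), against 9.34% of all genes. Isg15 stood at 0.81, and Socs1 and Usp18, which damp the receptors, at 0.33 and 0.43.

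Among 16 other tested interferon-induced GTPases, Gbp2b included, 14 had a higher mean, the median log2 fold change was 0.59, and 7 were higher at an unadjusted p under 0.05, against 9.34% of all genes. Mx1, an antiviral dynamin-like GTPase, measured 9.25 ± 4.62 CPM with vehicle and 26.6 ± 11.9 CPM with napabucasin (log2 fold change 1.51, SE 0.36). The gene 9930111J21Rik2, on chromosome 11 like Irgm1 and Igtp, stood at 0.98. The immunity-related GTPases, which act with Gbp proteins on vacuoles, went both ways. Irgm1 stood at 0.15, Igtp at 0.18 and Iigp1 at 0.14. Some others, named after their values were seen, stood at -0.36 (Gm4951), -0.30 (Irgm2), 0.59 (Tgtp2), 0.64 (Gm12250) and 0.79 (F830016B08Rik). Iigp1 had a level of 404 ± 21 CPM with vehicle and 445 ± 109 CPM with napabucasin.

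Of 10 genes of the inflammasome and of pyroptosis, processes in which Gbp proteins act, 9 had a higher mean and 4 were higher at an unadjusted p under 0.05, against 9.34% of all genes. Their median log2 fold change was 0.65. Aim2, a sensor of cytosolic DNA, stood at 1.29 (SE 0.36), Nlrp1b at 1.48 (SE 0.51) and Casp1 at 0.92 (SE 0.33). Casp4, which encodes the caspase that Gbp coats help to activate on bacteria, and Gsdmd, whose product forms the membrane pore, stood at 0.39 and 0.35. The 10 autophagy genes that place interferon-induced GTPases on membranes all had a lower mean (median log2 fold change -0.28), and 2 were lower at an unadjusted p under 0.05, against 5.83% of all genes. Atg12 stood at -0.58 (SE 0.20), Atg5 at -0.41 (SE 0.18) and Map1lc3a at -0.41 (SE 0.22). Of 6 enzymes of prenylation and CaaX processing, which lipid-anchor Gbp2 and Gbp5, 4 had a lower mean. The farnesyl and geranylgeranyl transferase subunit Fnta stood at -0.34, Zmpste24 at -0.38 and Icmt at -0.34.

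Most markers of immune, endothelial and stellate cells also had higher means in the napabucasin libraries, and their part in the Gbp differences was not tested. Of all genes tested, 50.1% had a log2 fold change above 0. All 8 B cell markers had a higher mean (median log2 fold change 1.29), and their summed level ran from 41.3 to 63.8 CPM with vehicle and from 84.3 to 159 CPM with napabucasin. All 12 T cell markers had a higher mean, with a median of 1.08, and their sum ran from 17.3 to 23.8 and from 25 to 52.7 CPM. The sum of NK cell markers ran from 10.5 to 25.8 CPM with vehicle and from 23.5 to 51.4 CPM with napabucasin, and 7 of 8 tested had a higher mean. Kupffer cell and macrophage markers (10 of 10 higher in mean, median 0.66) ran from 401 to 2110 and from 791 to 2820 CPM. Dendritic cell markers (6 of 6, median 0.65) ran from 14.1 to 28.0 and from 22.6 to 62.2 CPM. Neutrophil and monocyte markers (6 of 6 tested, median 0.35) ran from 17.7 to 57.6 and from 27.5 to 74.7 CPM. Markers of sinusoidal endothelium (9 of 9, median 0.65) ran from 77.4 to 243 and from 196 to 309 CPM, and stellate cell markers (8 of 8, median 0.63) from 308 to 415 and from 300 to 896 CPM. Hepatocyte markers went the other way, with 8 of 9 lower in mean and a median of -0.29, and cholangiocyte markers had a median of -0.14. No marker list had a gene at 0 in every library. Within the groups, the Gbp mean had r values over the 10 libraries of 0.57 with the summed dendritic cell markers, 0.45 with cholangiocyte and 0.43 with sinusoidal endothelium markers. The values were 0.24 with B cell, 0.13 with T cell, 0.08 with stellate cell and -0.02 with neutrophil and monocyte markers. They were -0.07 with Kupffer cell, -0.12 with hepatocyte and -0.32 with NK cell markers. These r values were not computed without napabucasin replicate 1, whose mean Gbp deviation was the largest (0.52). They use summed levels, so the most abundant genes of a list weigh most. Of the cholangiocyte markers, Spp1 averaged 338 CPM with vehicle and Sox9, the next highest, 10.6 CPM.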

How the data were processed

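RNA from 10 mouse livers, 5 per group, was enriched for polyadenylated transcripts, per the labels. The authors deposited raw counts, whole numbers of reads per gene. The deposited FPKM values are the authors' counts scaled by gene length and depth. Alignment and counting software named in the submitters' processing notes comprised HISAT2 2.0.5 with featureCounts 1.5.0-p3, besides CASAVA, and the build GRCm38 (mm10). No source used here gives strand, read length or the treatment of multi-mapped reads.

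The main test was edgeR 4.0.16 under R 4.3.3 (filterByExpr, TMM, robust quasi-likelihood test, Benjamini-Hochberg threshold 0.05), fitted on all 14244 genes that passed the filter. CPM values use TMM library sizes, and standard errors are those implied by the F statistic. The alternatives were other scalings, no filter, a replicate block, DESeq2 1.42.0, limma 3.58.1 on voom weights and on log2(FPKM + 1) or log2(FPKM + 0.1), and leaving out each library. The fit was tested on simulated data. The labels number the replicates 1 to 5 in both groups. Same-numbered libraries deviated together (correlations 0.154, 0.227, 0.208, 0.27 and 0.278). Of 10 libraries, 6 correlated best with the library of the same number in the other group. A pairing by number is a reading from the data and not from the labels. The main fit did not use it, and the replicate block was an alternative.

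Correlations used log2 CPM with a prior count of 2. Shared sequence, coding identity (Biopython 1.88) and exon overlap came from GENCODE M21, and promoters came from RefSeq. The members, the 8 pathway lists and the 10 marker lists were chosen with earlier results of these data known. Genes named were all members, a set of pathway genes listed by name, the 3 tested genes with the smallest p of each pathway list, and the 10 genes most like the members' mean. One gene that this rule names is not reported here.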

Additional observations from a re-analysis of the deposited data

Results flagged for a closer look

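Of 26 sets of 5 values examined (each Gbp member and the summed levels, in each group), 5 had a library that stood far from the others by Dixon's criterion at the 95% level, which chance reaches in about 1 set in 20 (1.3 of 26). Gbp8 measured 40.7 CPM in vehicle replicate 2, and the next highest vehicle library measured 19.8 CPM. Gbp11 measured 43.4 CPM in vehicle replicate 1, and the next highest measured 15.5 CPM. Gbp7 measured 25.2 CPM in vehicle replicate 2, below the other vehicle libraries at 31.9 to 34.1 CPM. Gbp5 measured 12.5 CPM in napabucasin replicate 4, and the other napabucasin libraries measured 6.8 to 8.4 CPM. The summed level of the 10 members was 534 CPM in napabucasin replicate 1, and the next highest napabucasin library had 324 CPM.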

How the results depend on the processing

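In all, 207 of 210 values of a member's log2 fold change over 21 alternative settings were above 0. The exceptions were all Gbp2, at -0.04 with limma-voom, at -0.02 when vehicle replicate 1 was left out and at -0.23 when napabucasin replicate 4 was (range 0.33 to -0.23 over left-out libraries), and the cause was not tested. The median over the members ran from 0.75 on log2(FPKM + 1) to 1.10 without vehicle replicate 1. Genes past the threshold, 0 in the main edgeR analysis (at an unadjusted p under 0.05, 1331 were higher and 830 lower), numbered 1 by library size alone, 19 with no filter (Gbp9 among them), 242 with DESeq2, 132 with limma-voom, 1 on log2(FPKM + 0.1), and 0 to 18 with 1 library left out (18 without vehicle replicate 1, 3 without napabucasin replicate 5). Genes higher at an unadjusted p under 0.05 numbered 882 on log2(FPKM + 0.1), 852 to 1633 with 1 library left out (852 without napabucasin replicate 1, 867 without vehicle replicate 5), and 762 without the 3 libraries with the highest ribosomal RNA share, an alternative chosen after seeing the data that leaves 7 libraries. Members whose groups did not overlap numbered 3 in the main analysis, beside 1.21% of all genes tested. They numbered 2 with median-of-ratios size factors, with no filter and on each FPKM scale. With 1 library left out they numbered 3 to 6 (6 without vehicle replicate 2, 5 without napabucasin replicate 2 or 5). Without the 3 libraries with the highest ribosomal RNA share they numbered 8. Groups of fewer libraries overlap less often in any gene. No share over all genes was computed for these alternatives, so nothing is read from their counts. With the replicate block, which pairs same-numbered libraries, 0 genes passed the threshold, 1675 were higher at an unadjusted p under 0.05, the members' median was 0.92 and no member passed. Scaling by library size alone moved the median of all genes by 0.068. The counts of genes also depend on how many were tested: 14244 in the main fit, 26567 with no filter and 13682 with DESeq2. On log2(FPKM + 0.1) the genes tested were those that averaged at least 0.5 FPKM. Values for Gbp6 and Gbp10 are limited by shared sequence, and Gbp10 in vehicle replicate 2 rests on 19 counts.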

Other observations

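The 5 vehicle libraries differed less in Gbp3 than counting alone gives on average. Gbp3 had 374 to 707 counts in these libraries, for which the counting error is 3.76% to 5.17% of the value, and the coefficient of variation of its CPM was 1.24%. In the napabucasin libraries the Gbp3 coefficient of variation was 18.4%. Gbp7 came next among the vehicle values at 11.7%, with a counting error of 4.12% to 5.03%, and Gbp11 had the widest vehicle spread at 78.5%.

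The pseudogene Gbp2-ps held 0 counts over the 10 libraries. The processed pseudogene Gm43802, which covers 637 exonic bases of Gbp7 (11.3% of its exons), also held 0 counts, and Gm43302 held 8 counts over the 10 libraries. The promoter of Gbp2b held the GAAANNGAAA spacing from -137 to -128 and no TTCNNNGAA match.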
